A study of Homo sapiens with 18 samples.

Results

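The death receptors of the TNF receptor superfamily and the caspase-8 machinery beneath them were followed through 3 human lymphoma lines treated with a BCL6 inhibitor. The members are 10 genes chosen by name: the TRAIL receptors TNFRSF10A, TNFRSF10B, TNFRSF10C and TNFRSF10D, the receptors FAS and TNFRSF1A, the adaptors FADD and TRADD, the protease CASP8 and its inhibitor CFLAR. Of the 26004 named loci in the deposited table, 7 of the 10 members had a row under their own name, and all 7 passed the filter on low values described below. The other 3 (TNFRSF10C, TNFRSF1A and TRADD) appeared only in rows that pool them with other genes, so their values are given as those of a shared locus. CFLAR had 6 rows under its own name, of which the one with the highest mean was used.

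The lines SUDHL6, SUDHL4 and Farage are established cultures of the germinal centre (GCB) class of diffuse large B-cell lymphoma (DLBCL), grown in RPMI1640 with 10% FBS. Each line was given either a BCL6 inhibitor or DMSO, the solvent control, with 3 libraries in each of the 6 groups and no allele or second agent named by the labels. Sample titles give 12 h of treatment and source names give 24 h, and neither the compound nor its dose is named in the sources used here. Messenger RNA was measured as FPKM, fragments scaled to transcript length and to the mapped total of the library, which allows levels of different genes to be set side by side. Nothing in the labels says whether the 3 libraries of a group came from separate cultures, so each p measures the spread between these libraries, which may be technical.

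Death receptors carry a cytoplasmic death domain. When the ligand TRAIL binds TNFRSF10A (DR4) or TNFRSF10B (DR5), or FAS ligand binds FAS, the receptor recruits the adaptor FADD, which brings procaspase-8 into a death-inducing signalling complex where the protease activates itself. The decoy receptors compete for TRAIL without passing on the signal: TNFRSF10C has no death domain and sits on a lipid anchor, and TNFRSF10D has a truncated one. CFLAR encodes c-FLIP, a relative of caspase-8 with no protease activity of its own in its long form, which sets how far caspase-8 is activated in the complex. TNFRSF1A uses the adaptor TRADD first, for NF-kB signalling and then, in a second complex, for FADD and caspase-8. In germinal centre B cells, FAS and c-FLIP take part in the selection of cells, and BCL6 is the transcriptional repressor of the germinal centre programme.

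CASP8 and CFLAR, which lie on either side of CASP10, moved in opposite directions in Farage. FAS and FADD were called lower in every line, though FAS was under 1 FPKM in every SUDHL6 library. For this reason these 4 genes are shown here by the 250 bases before their most upstream start in RefSeq (GRCh38.p14, plus strand, 5′ to 3′). They lie at chr2:201233213-201233462 (CASP8), chr2:201118466-201118715 (CFLAR), chr10:88990548-88990797 (FAS) and chr11:70203046-70203295 (FADD). The table lists 3 starts for CASP8, 4 for CFLAR, 3 for FAS and 1 for FADD. Capitals mark matches to TTCNNNGAA, the core recognised by BCL6 and STAT factors, and to GGGNNTTCC, an NF-kB-type core. Both were searched on both strands.
CASP8: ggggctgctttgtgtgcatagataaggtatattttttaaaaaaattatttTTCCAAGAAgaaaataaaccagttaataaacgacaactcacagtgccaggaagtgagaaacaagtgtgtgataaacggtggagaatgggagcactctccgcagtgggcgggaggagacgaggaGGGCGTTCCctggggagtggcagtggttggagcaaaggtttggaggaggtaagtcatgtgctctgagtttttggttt
CFLAR: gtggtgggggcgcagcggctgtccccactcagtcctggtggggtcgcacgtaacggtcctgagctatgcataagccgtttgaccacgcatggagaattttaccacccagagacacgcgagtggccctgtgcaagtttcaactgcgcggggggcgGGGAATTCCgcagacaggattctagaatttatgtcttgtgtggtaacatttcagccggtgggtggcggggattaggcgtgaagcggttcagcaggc
FAS: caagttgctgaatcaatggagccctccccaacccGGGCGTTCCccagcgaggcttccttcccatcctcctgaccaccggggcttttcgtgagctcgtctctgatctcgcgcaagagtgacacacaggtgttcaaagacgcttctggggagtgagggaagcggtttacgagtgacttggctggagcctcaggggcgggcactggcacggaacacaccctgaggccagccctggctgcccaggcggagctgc
FADD: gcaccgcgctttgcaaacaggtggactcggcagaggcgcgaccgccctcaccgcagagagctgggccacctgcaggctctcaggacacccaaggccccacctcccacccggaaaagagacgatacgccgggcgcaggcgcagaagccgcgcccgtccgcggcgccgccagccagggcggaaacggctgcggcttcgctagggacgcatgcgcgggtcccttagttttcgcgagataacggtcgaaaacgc
The BCL6/STAT-type core stood once, in CASP8 (TTCCAAGAA), with its first base at -200, counted back from the start. The NF-kB-type core stood in CASP8 (GGGCGTTCC at -77), CFLAR (GGGAATTCC at -96) and FAS (GGGCGTTCC at -216). FADD held neither. Of all 35116 promoter windows of this length, 6.57% held the first core and 5.78% the second, and no match overlapped another in these 4. The cores were chosen after the sequences were seen, and a match is a description of letters only.

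Library quality bears on some values. Relative depth could be estimated for 16 libraries and lay between 0.691 and 1.15 times the median. Where estimated, treated libraries lay below their controls in each line, in Farage at 0.869 to 1 against 1.01 to 1.11. Both SUDHL6 replicate 3 libraries stood apart, with a Pearson r across genes of at most 0.909 (DMSO) and 0.895 (inhibitor) with the others of their group. B cell markers stayed present: the 3 of 6 with a row of their own summed to at least 271 FPKM in every library. All 3 fell under the inhibitor in each line. The 4 of 5 germinal centre markers with a row of their own summed to 120 to 151 FPKM in SUDHL6 DMSO and 79.2 to 117 FPKM treated. Their sums were 226 to 253 and 108 to 111 FPKM in SUDHL4, and 211 to 225 and 142 to 155 FPKM in Farage. Of these 4, 1 was called lower in SUDHL6, 4 in SUDHL4 and 2 in Farage. T and NK cell markers summed to at most 1.48 FPKM. Fibroblast and epithelial markers summed to 52.1 to 56.1 FPKM in SUDHL4 DMSO and 16.3 to 17.6 FPKM in treated SUDHL4, and to at most 2.71 FPKM elsewhere, and monocyte markers summed to 0.694 to 1.99 FPKM in DMSO and 2.27 to 3.61 FPKM in treated libraries. The part of these shifts in the results was not tested, and in bulk RNA fewer cells of a type and less RNA per cell cannot be told apart.

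Under the inhibitor the receptors parted. TNFRSF10A, TNFRSF10B and CASP8 rose in all 3 lines, and FADD fell in all 3. FAS fell in SUDHL4 and Farage, and was called lower in SUDHL6 from under 1 FPKM. The decoy TNFRSF10D rose in SUDHL4 and Farage. In SUDHL6 TNFRSF10D was also higher in treated libraries, but stayed under 1 FPKM and was not called. CFLAR rose in SUDHL6 and fell in Farage. Calls rest on limma applied to log2(FPKM + 1) over 12201 named loci, with a Benjamini-Hochberg adjusted p under 0.05. In SUDHL6, 4 of the 7 tested members rose and 2 fell, where 63.9% of all loci were called, 30.2% higher and 33.7% lower. In SUDHL4, 4 members rose and 2 fell, against 66.7% of all loci, 29.6% higher and 37.1% lower. In Farage, 4 members rose and 3 fell, against 67.2% of all loci, 29.2% higher and 38% lower. Treated and DMSO libraries did not overlap for any of the 7 in any line, which also held for 58.1% of all loci in SUDHL6, 78% in SUDHL4 and 80.4% in Farage. With so much of the transcriptome moving, the number of members called says little, and the sizes and directions carry the description. The median log2 change of the 7 was 0.61 in SUDHL6, 0.52 in SUDHL4 and 0.50 in Farage, where the median of all loci was -0.01, -0.04 and -0.07. Each median of the 7 is the value of the middle gene among members that moved both ways. It does not describe a shift shared by them, and the members were chosen with earlier results of these data known.

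**Figure D1:**
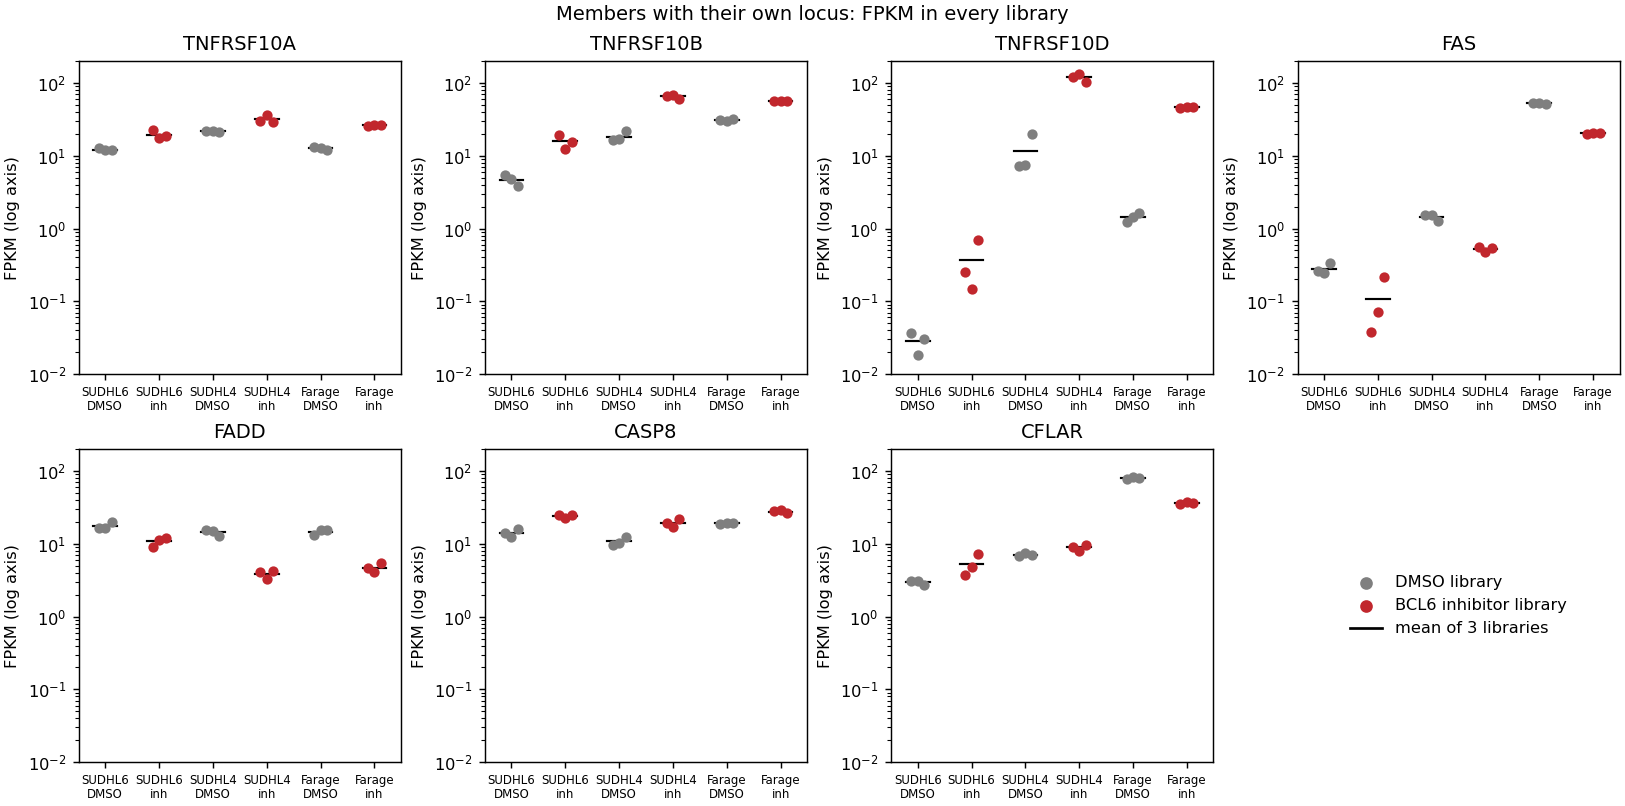
FPKM (log axis) of the 7 members with their own locus in each of the 18 libraries, by line and treatment, with grey points for DMSO, red points for the BCL6 inhibitor and bars for the mean of 3 libraries. TNFRSF10D spans from 0.0182 to 133 FPKM, and FAS and CFLAR stand far higher in Farage than in the other lines.

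TNFRSF10A, the signalling TRAIL receptor DR4, was measured at chr8:23044750-23122837 (hg19, as deposited, like all loci below). In SUDHL6 it stood at 12.6, 11.9 and 12.0 FPKM in DMSO replicates 1, 2 and 3 and at 22.6, 17.3 and 18.8 FPKM in treated cells. The SUDHL4 values were 21.6, 22.2 and 21.2 FPKM in DMSO and 29.7, 35.9 and 29.3 FPKM in treated cells. For Farage they were 13.1, 12.8 and 12.1 FPKM in DMSO and 25.8, 26.9 and 26.6 FPKM in treated cells. Every treated library lay above every DMSO library of its line. The rise in mean FPKM was 1.61-fold in SUDHL6 (log2 change 0.64, SE 0.09, adjusted p = 1.88e-05), 1.46-fold in SUDHL4 (0.52, SE 0.09, adjusted p = 0.00011) and 2.09-fold in Farage (1.01, SE 0.09, adjusted p = 1.77e-07). Farage thus exceeded SUDHL6 by 0.37 on the log2 scale (adjusted p = 0.0329) and SUDHL4 by 0.49 (adjusted p = 0.00703), while SUDHL4 and SUDHL6 differed by -0.12 (adjusted p = 0.517). The row that pools CHMP7 with LOC389641 has the same deposited span and was also higher in treated cells, with group means of 16.6 against 25.1 FPKM in SUDHL6, 38.5 against 45.7 in SUDHL4 and 23.0 against 32.4 in Farage. Since the strandedness is not given in the sources used here, reads of overlapping genes in such a span cannot be told apart.

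TNFRSF10B, the other signalling TRAIL receptor (DR5, chr8:22552973-22941132), rose in all 3 lines, by larger folds than TNFRSF10A in SUDHL6 and SUDHL4. SUDHL6 held 5.39, 4.85 and 3.84 FPKM in DMSO and 19.4, 12.6 and 15.7 FPKM in treated cells. In SUDHL4 the DMSO libraries gave 16.3, 16.7 and 21.8 FPKM and the treated ones 66.4, 68.8 and 60.7 FPKM. Farage gave 31.5, 29.9 and 31.6 FPKM in DMSO and 56.4, 57.2 and 57.3 FPKM in treated cells. Groups did not overlap in any line, and treated SUDHL4 ended above treated Farage although it had started below. Mean FPKM rose 3.38-fold in SUDHL6 (log2 change 1.56, SE 0.14, adjusted p = 2.79e-07), 3.57-fold in SUDHL4 (1.79, SE 0.14, adjusted p = 5.18e-08) and 1.84-fold in Farage (0.86, SE 0.14, adjusted p = 6.72e-05). The rise in Farage was smaller than in SUDHL6 by 0.70 on the log2 scale (difference -0.70, adjusted p = 0.0125) and than in SUDHL4 by 0.93 (difference -0.93, adjusted p = 0.00189). In SUDHL6 the ratio of TNFRSF10B to TNFRSF10A FPKM was 0.385 ± 0.0575 with DMSO and 0.805 ± 0.0677 with the inhibitor. In SUDHL4 this ratio was 0.846 ± 0.159 and 2.08 ± 0.160, and in Farage 2.45 ± 0.141 and 2.16 ± 0.0269 (SD, n = 3 each, no test). RHOBTB2, whose row has the same deposited span, had means of 25.2 against 34.1 FPKM in SUDHL6, 47.6 against 115 in SUDHL4 and 2.00 against 2.84 in Farage. Of the other named rows in that span, PEBP4 had means of 0.0251 against 0.0210 FPKM in SUDHL6, 1.22 against 0.124 in SUDHL4 and 1.03 against 0.385 in Farage. The row that pools PEBP4 with RHOBTB2 had 2.33 against 2.67, 15.0 against 16.8 and 0.0722 against 0.398 FPKM.

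TNFRSF10D, the decoy DcR2 (chr8:22993100-23021543), had the widest range of the members. In SUDHL6 it was close to absent, at 0.0366, 0.0182 and 0.0303 FPKM in DMSO and 0.255, 0.149 and 0.690 FPKM in treated cells. SUDHL4 went from 7.17, 7.52 and 20.2 FPKM in DMSO to 122, 133 and 104 FPKM. Farage moved from 1.21, 1.42 and 1.66 FPKM to 45.7, 47.1 and 46.0 FPKM. The groups did not overlap in any line, and SUDHL4 DMSO replicate 3 stood well above the other DMSO libraries of its line. Mean FPKM rose 10.3-fold in SUDHL4 (log2 change 3.40, SE 0.27, adjusted p = 6.53e-08), or 16.3-fold (3.85) without DMSO replicate 3, and 32.4-fold in Farage (4.29, SE 0.27, adjusted p = 7.14e-09). The SUDHL6 difference of 0.39 (SE 0.27) was not called (adjusted p = 0.226), and this value rests on the scale, since every SUDHL6 library was below 1 FPKM (means of 0.0283 and 0.365 FPKM). With a pseudocount of 0.1 in place of 1 it was 1.69 and called (adjusted p = 0.00143), and without SUDHL4 DMSO replicate 3 it was 0.39 and called (adjusted p = 0.0156). On the log2(FPKM + 1) scale Farage and SUDHL4 each exceeded SUDHL6, by 3.9 (adjusted p = 2.82e-06) and 3.01 (adjusted p = 5.56e-05). Farage and SUDHL4 differed by 0.89 (adjusted p = 0.0849). That scale shrinks changes of low genes. As a ratio of means SUDHL6 rose 12.9-fold, or 7.14-fold without treated replicate 3. With a pseudocount of 0.1 the changes were 1.69, 3.52 and 4.93 in SUDHL6, SUDHL4 and Farage. Their difference was still called (F test, adjusted p = 0.000903).

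TNFRSF10C, the lipid-anchored decoy DcR1, shares its only row with LOC254896 (chr8:22941867-22975030) and fell below the filter. That row was between 0 and 0.213 FPKM in SUDHL6. In SUDHL4 it gave 0.287, 0.173 and 0.135 FPKM in DMSO and 0.499, 0.410 and 0.476 FPKM in treated cells. Farage gave 0.254, 0.431 and 0.463 FPKM in DMSO and 0.679, 0.708 and 0.799 FPKM in treated cells. Treated libraries of SUDHL4 and Farage lay above all their DMSO libraries, at levels far under those of TNFRSF10D, and no test was made.

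Set against each other, the signalling TRAIL receptors rose in sum while their share of the sum with the decoy TNFRSF10D fell. The shared TNFRSF10C row was not counted in that share. In SUDHL6 the fall in share rested on TNFRSF10D values under 1 FPKM. There the TNFRSF10C row had a similar DMSO mean, 0.0380 FPKM against 0.0283 FPKM for TNFRSF10D. Together TNFRSF10A and TNFRSF10B held 16.9 ± 1.09 FPKM in SUDHL6 controls and 35.5 ± 6.14 FPKM after treatment. The sum was 40.0 ± 2.71 and 96.9 ± 7.41 FPKM in SUDHL4, and 43.6 ± 0.966 and 83.4 ± 1.01 FPKM in Farage (SD, n = 3). In each line the treated libraries lay above the controls. Their percentage of the sum with TNFRSF10D was 99.8, 99.9 and 99.8% in SUDHL6 DMSO and 99.4, 99.5 and 98.0% in treated SUDHL6. SUDHL4 gave 84.1, 83.8 and 68.1% in DMSO and 44.1, 44 and 46.4% under the inhibitor. Farage gave 97.4, 96.8 and 96.3% in DMSO and 64.3, 64.1 and 64.6% under the inhibitor. In treated SUDHL4 the decoy therefore held the larger part, 55.2 ± 1.37%, where it had held 21.3 ± 9.19%. In treated Farage the decoy held 35.7 ± 0.229% after 3.17 ± 0.503%, and in SUDHL6 it held 1.02 ± 0.815% after 0.167 ± 0.0511% (SD, n = 3). Shares over members were given no test, and they count messenger RNA, not receptor protein at the surface.

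**Figure D2:**
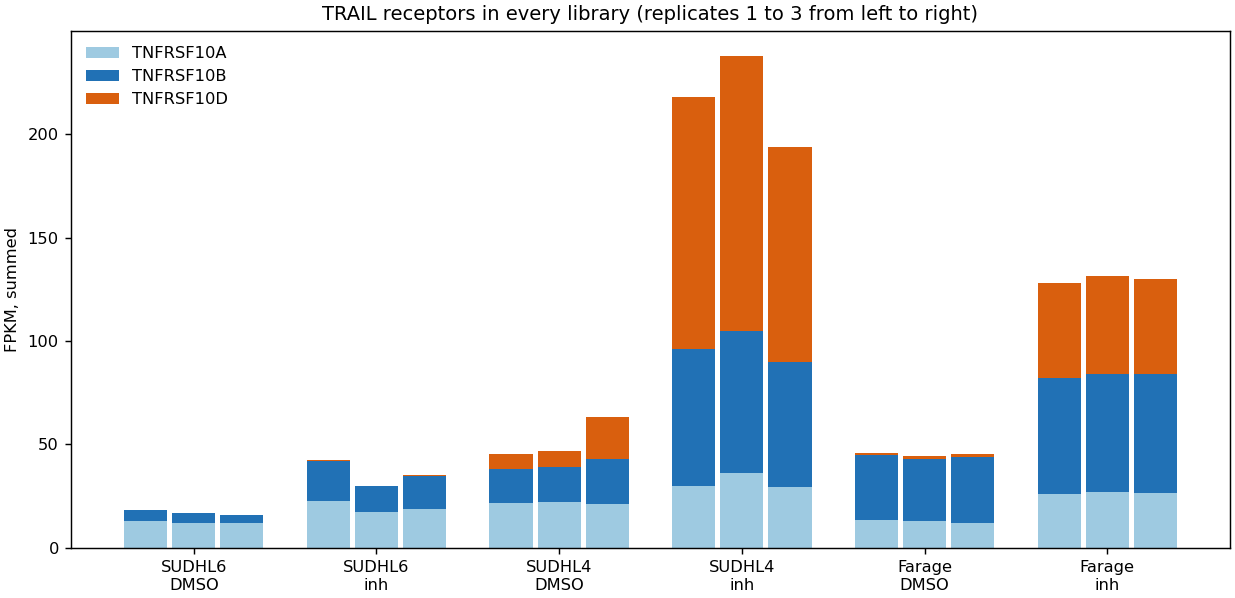
Summed FPKM of TNFRSF10A (light blue), TNFRSF10B (dark blue) and the decoy TNFRSF10D (orange) in each library, with replicates 1, 2 and 3 of each group from left to right. The orange part is invisible in SUDHL6, reaches 104 to 133 FPKM in treated SUDHL4 and 45.7 to 47.1 FPKM in treated Farage.

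FAS, the receptor of FAS ligand (chr10:90694605-90777078), went the other way. Farage, where it was abundant, gave 52.8, 53.5 and 52.0 FPKM in DMSO and 20.0, 20.4 and 20.3 FPKM in treated cells. In SUDHL4 it was low, at 1.55, 1.52 and 1.27 FPKM in DMSO and 0.554, 0.472 and 0.548 FPKM in treated cells. SUDHL6 held 0.263, 0.244 and 0.334 FPKM in DMSO and 0.0373, 0.0704 and 0.216 FPKM in treated cells. Treated libraries lay below all DMSO libraries in each line, with SUDHL6 replicate 3 the nearest to its controls. Mean FPKM was 2.6-fold lower in SUDHL6 (log2 change -0.21, SE 0.07, adjusted p = 0.0129), 2.76-fold lower in SUDHL4 (-0.68, SE 0.07, adjusted p = 5.3e-07) and 2.6-fold lower in Farage (-1.34, SE 0.07, adjusted p = 9.45e-10). Without treated replicate 3, the SUDHL6 mean was 5.21-fold lower. The changes on the log2(FPKM + 1) scale differed between lines (F test, adjusted p = 1.58e-06), but that scale shrinks changes of low genes, and with a pseudocount of 0.1 the changes were -0.96, -1.31 and -1.38 in SUDHL6, SUDHL4 and Farage and their difference was not called (adjusted p = 0.462). The SUDHL6 call was lost when only the SUDHL6 libraries entered the fit (adjusted p = 0.0547) and without inhibitor replicate 1 (adjusted p = 0.0518). A row pooling ACTA2 with FAS-AS1, an antisense RNA of FAS, has the same deposited span. Its group means were 0.486 against 0.162 FPKM in SUDHL6, 0.400 against 0.191 in SUDHL4 and 6.25 against 3.41 in Farage.

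TNFRSF1A, the main TNF receptor, shares its row with SCNN1A (chr12:6402336-6500737) and never reached 1 FPKM. The row was listed at 0 in the 3 DMSO libraries of SUDHL6 and stood at 0.161, 0.0383 and 0.0739 FPKM after treatment. In SUDHL4 it read 0.0105, 0 and 0.0976 FPKM in DMSO and 0.559, 0.493 and 0.347 FPKM in treated cells. For Farage the row read 0.00863, 0.0101 and 0 FPKM in DMSO and 0.269, 0.473 and 0.293 FPKM in treated cells. Each treated library was above each DMSO library of its line, at levels too low for the filter, and no test or fold is given.

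FADD, the adaptor that couples both TRAIL receptors and FAS to caspase-8 (chr11:70049268-70054204), fell in each line from DMSO levels of 12.9 to 19.9 FPKM. SUDHL6 gave 16.6, 16.6 and 19.9 FPKM in DMSO and 8.98, 11.4 and 11.9 FPKM in treated cells. SUDHL4 went from 15.5, 15.1 and 12.9 FPKM to 4.13, 3.32 and 4.19 FPKM. In Farage the values were 13.2, 15.6 and 15.4 FPKM in DMSO and 4.64, 4.08 and 5.46 FPKM in treated cells. No treated library reached a DMSO library of its line, and treated SUDHL6 kept the highest level of the 3 treated lines. The fall in mean FPKM was 1.64-fold in SUDHL6 (log2 change -0.67, SE 0.12, adjusted p = 0.000273), 3.74-fold in SUDHL4 (-1.67, SE 0.12, adjusted p = 4.01e-08) and 3.11-fold in Farage (-1.46, SE 0.12, adjusted p = 1.43e-07). SUDHL6 fell less than SUDHL4 (difference of SUDHL4 from SUDHL6 -1.0, SE 0.18, adjusted p = 0.000749) and less than Farage (difference of Farage from SUDHL6 -0.79, adjusted p = 0.00325), while Farage and SUDHL4 differed by 0.21 (adjusted p = 0.392).

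TRADD, the first adaptor of TNFRSF1A, was read only through shared rows of 1 span (chr16:67143831-67217883). The row it shares with B3GNT9 was at 7.68, 8.21 and 5.96 FPKM in SUDHL6 DMSO and 4.43, 6.59 and 4.61 FPKM after treatment. SUDHL4 libraries had 6.67, 6.94 and 6.22 FPKM in DMSO and 3.61, 3.96 and 3.89 FPKM after treatment. Farage gave 8.17, 7.37 and 7.50 FPKM in DMSO and 3.72, 4.29 and 3.53 FPKM after treatment. Groups overlapped in SUDHL6 only. The row fell by 0.42 on the log2 scale in SUDHL6 (adjusted p = 0.00794), by 0.66 in SUDHL4 (adjusted p = 0.000271) and by 0.84 in Farage (adjusted p = 2.91e-05), and the SUDHL6 call was lost when only SUDHL6 libraries entered the fit (adjusted p = 0.127). A second row, shared with FBXL8, HSF4 and NOL3, read 3.43, 3.30 and 3.34 FPKM in Farage DMSO and was higher in each treated Farage library, at 4.42, 3.87 and 3.84 FPKM. Its groups overlapped in SUDHL6 (6.67 to 8.19 FPKM in DMSO and 5.49 to 9.82 FPKM treated) and in SUDHL4 (2.27 to 2.61 FPKM in DMSO and 2.11 to 2.96 FPKM treated). Which of these genes carries either value cannot be told from the rows.

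**Figure D3:**
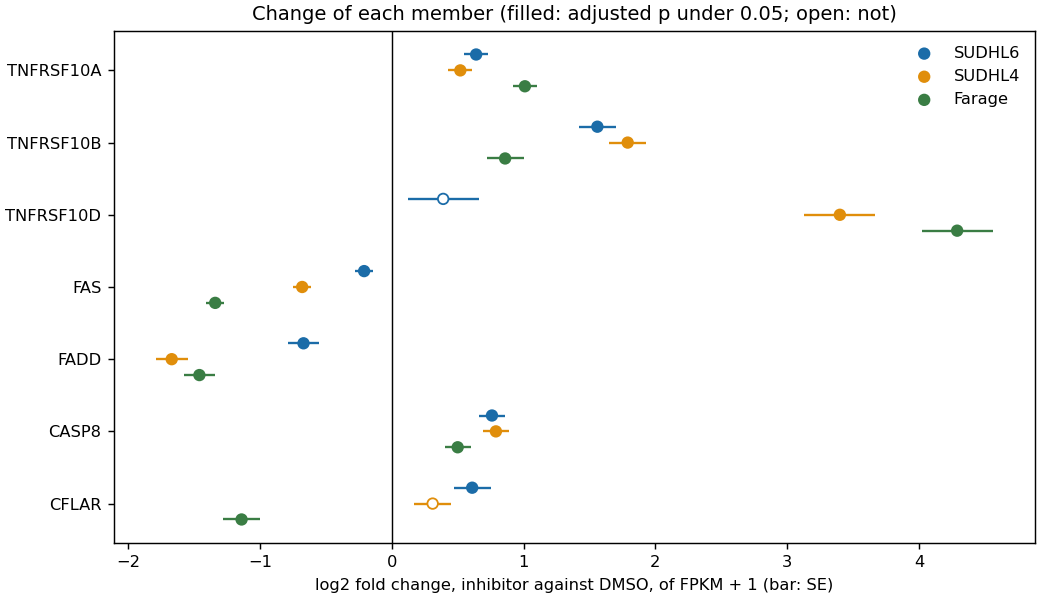
Log2 fold change of FPKM + 1, inhibitor against DMSO, for each of the 7 members in SUDHL6 (blue), SUDHL4 (orange) and Farage (green), with bars of 1 SE and filled points for an adjusted p under 0.05. TNFRSF10D lies farthest to the right in SUDHL4 (3.40) and Farage (4.29), and CFLAR lies on both sides of 0.

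CASP8, the initiator protease (chr2:202098130-202152576), rose in every line. In SUDHL6 its values were 13.9, 12.4 and 16 FPKM in DMSO and 25.3, 23.0 and 25.1 FPKM in treated cells. The SUDHL4 libraries held 9.72, 10.4 and 12.6 FPKM in DMSO and 19.4, 17.3 and 22 FPKM in treated cells. Farage libraries held 18.9, 19.2 and 19.6 FPKM in DMSO and 27.9, 28.7 and 26.6 FPKM in treated cells. The groups were separate in all lines. Mean FPKM rose 1.73-fold in SUDHL6 (log2 change 0.76, SE 0.10, adjusted p = 1.58e-05), 1.8-fold in SUDHL4 (0.79, SE 0.10, adjusted p = 9.08e-06) and 1.44-fold in Farage (0.50, SE 0.10, adjusted p = 0.000553). A difference between the lines was not called for CASP8 (F test, adjusted p = 0.196), although it was with limma's array weights (adjusted p = 0.00857).

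CFLAR, the c-FLIP gene (chr2:201978930-202041710), was the one member whose calls changed direction between lines. Farage fell from 78.7, 83.1 and 81.0 FPKM in DMSO to 35.4, 37.1 and 36.2 FPKM. SUDHL6 rose from 3.08, 3.13 and 2.71 FPKM to 3.68, 4.75 and 7.32 FPKM. SUDHL4 gave 6.74, 7.41 and 6.99 FPKM in DMSO and 9.11, 8.09 and 9.69 FPKM in treated cells. Groups were separate in each line, above DMSO in SUDHL6 and SUDHL4 and below it in Farage, and even treated Farage stayed above every library of the other lines. Mean FPKM was 2.23-fold lower in Farage (log2 change -1.14, SE 0.14, adjusted p = 7.27e-06) and 1.77-fold higher in SUDHL6 (0.61, SE 0.14, adjusted p = 0.00182). The SUDHL4 change of 0.31 (SE 0.14) was not called (adjusted p = 0.0767), and was called under 6 of the alternatives tried, for instance when only SUDHL4 libraries entered the fit (adjusted p = 0.0148). The SUDHL6 rise leaned on replicate 3: it was 0.39 without the treated replicate 3 library (adjusted p = 0.00173), 0.34 without both replicate 3 libraries (adjusted p = 0.00665), and was not called when only SUDHL6 libraries entered the fit (adjusted p = 0.0802). The Farage change lay below that of SUDHL6 by 1.75 on the log2 scale (difference -1.75, adjusted p = 1.68e-05) and below that of SUDHL4 by 1.44 (difference -1.44, adjusted p = 8.71e-05). The antisense row CFLAR-AS1, of the same deposited span, had Farage means of 3.55 FPKM in DMSO and 1.66 FPKM in treated cells, SUDHL6 means of 0.125 and 0.0789 FPKM and SUDHL4 means of 0.221 and 0.424 FPKM.

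The ratio of CFLAR to CASP8 FPKM separated the lines more than the treatment did in SUDHL6 and SUDHL4. It was 0.214 ± 0.0425 in DMSO and 0.215 ± 0.0736 under the inhibitor in SUDHL6, with single libraries from 0.145 to 0.292. SUDHL4 went from 0.694, 0.713 and 0.556 to 0.471, 0.469 and 0.440. Farage went from 4.16, 4.33 and 4.13 to 1.27, 1.29 and 1.36. The treated Farage ratio, 1.31 ± 0.0472, thus stayed above that of each library of the other lines (SD, n = 3, no test).

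**Figure D4:**
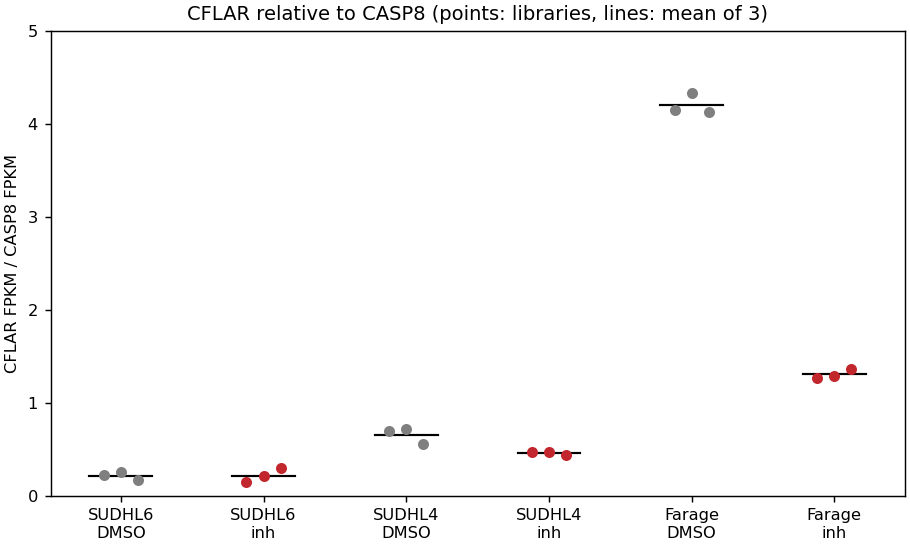
Ratio of CFLAR FPKM to CASP8 FPKM in each library, with grey points for DMSO, red points for the BCL6 inhibitor and lines for the mean of 3. Farage drops from a mean of 4.21 to 1.31, and the SUDHL6 groups overlap.

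The responses differed between lines for 6 of the 7 tested members (moderated F test, adjusted p under 0.05), where 52.5% of all loci tested did. SUDHL4 differed from SUDHL6 for 3 members, TNFRSF10D, FAS and FADD, against 31.9% of loci. Farage differed from SUDHL6 for 6 members, CASP8 being the exception, against 34.8% of loci. Farage differed from SUDHL4 for 4 members, TNFRSF10A, TNFRSF10B, FAS and CFLAR, against 36.3% of loci. For FAS and TNFRSF10D these differences carry the limits of scale given above.

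The untreated lines already differed. FAS under DMSO had the order Farage, SUDHL4, SUDHL6, with means of 52.7 ± 0.764, 1.45 ± 0.158 and 0.280 ± 0.0472 FPKM (SD, n = 3), and all neighbours in that order differed (adjusted p = 1.39e-16 for Farage against SUDHL4 and 1.86e-08 for SUDHL4 against SUDHL6). CFLAR had the same order, with Farage 11.5-fold above SUDHL4 (adjusted p = 3.15e-11) and SUDHL4 2.37-fold above SUDHL6 (adjusted p = 2.36e-05). TNFRSF10B also followed it, with Farage 1.69-fold above SUDHL4 (adjusted p = 0.000273) and SUDHL4 3.9-fold above SUDHL6 (adjusted p = 4.77e-08). These 3 genes were thus highest in the Farage control cells. TNFRSF10D instead was highest in SUDHL4, 8.14-fold above Farage (adjusted p = 3.93e-06) or 5.14-fold without SUDHL4 DMSO replicate 3, and in SUDHL6 below 1 FPKM. TNFRSF10A was highest in SUDHL4, while Farage and SUDHL6 differed by 0.05 on the log2 scale (SE 0.09, adjusted p = 0.624). CASP8 was highest in Farage, 1.36-fold above SUDHL6 (adjusted p = 0.00198), and the call of SUDHL6 over SUDHL4 (log2 difference -0.34, adjusted p = 0.00922) came with overlapping libraries and was lost in 3 alternatives. For FADD no pair of control lines was called: the adjusted p was 0.0735 for SUDHL4 against SUDHL6, 0.0926 for Farage against SUDHL6 and 0.907 for Farage against SUDHL4. In all, 6 of the 7 tested members differed between SUDHL4 and SUDHL6, where 63.9% of loci did, 5 between Farage and SUDHL6 (66.8% of loci) and 6 between Farage and SUDHL4 (63.7% of loci).

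Around the members, 51 other genes of the pathway were listed, of which 41 had a row of their own and 37 passed the filter. Of these 37, 15 rose and 7 fell in SUDHL6, 17 rose and 13 fell in SUDHL4, and 17 rose and 9 fell in Farage, which makes 59.5, 81.1 and 70.3% called beside the shares of all loci given above. Of the 4 ligands that passed the filter none was called higher, 1 fell in SUDHL6 and in Farage and 2 fell in SUDHL4. TNFSF10, which encodes TRAIL itself, was low everywhere, with 0.244 to 3.01 FPKM over the DMSO libraries. It fell in SUDHL6 (log2 change -0.42, adjusted p = 0.000705), SUDHL4 (-0.58, adjusted p = 2.97e-05) and Farage (-0.41, adjusted p = 0.0007). In Farage a pseudocount of 0.1 gave -0.57 and no call (adjusted p = 0.112). In SUDHL6 it was under 1 FPKM in every library, at 0.0292, 0.144 and 0 FPKM after treatment, and it passed the filter only through the other lines. FASLG, the FAS ligand, was listed at 0 in all 18 libraries. TNF had 8 rows under its own name, of which the one with the highest mean was used. TNF was not called in SUDHL6 (-0.72, adjusted p = 0.414), SUDHL4 (-1.34, adjusted p = 0.123) or Farage (0.06, adjusted p = 0.96). In SUDHL6 its replicate 3 libraries read 37.2 FPKM in DMSO and 31.7 FPKM treated, against at most 8.01 in the others. The SUDHL6 value was called once libraries were paired by their replicate block (-0.72, adjusted p = 0.00533) or without both replicate 3 libraries (-0.97, adjusted p = 0.0122). In SUDHL4 the TNF libraries did not overlap, at 12.8, 12.7 and 10.9 FPKM in DMSO and 4.15, 4.68 and 3.78 FPKM in treated cells, and the value of -1.34 was called when only SUDHL4 libraries entered the fit (adjusted p = 0.000134). TNFRSF21, death receptor DR6, stayed below 0.3 FPKM and out of the test. The one tested gene among the other receptors, CD40, fell in each line.

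**Figure D5:**
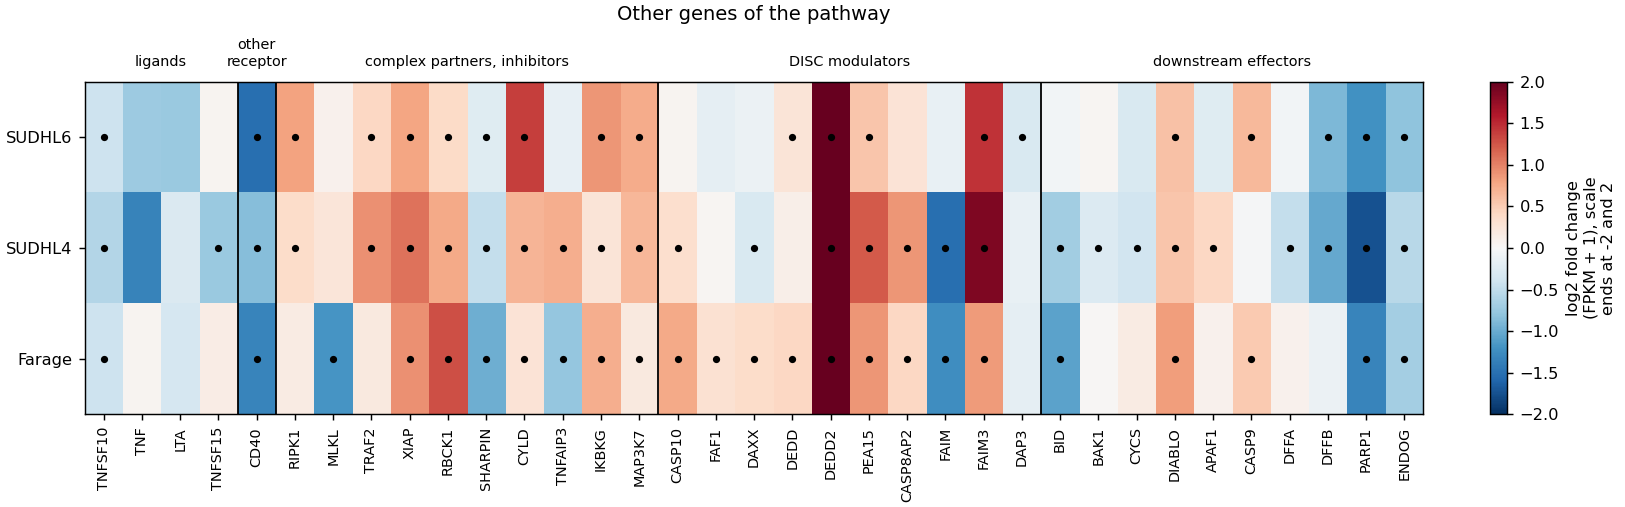
Log2 fold change of FPKM + 1, inhibitor against DMSO, of 35 other pathway genes with their own row that passed the filter, by line and gene list, with red for higher, blue for lower and dots for an adjusted p under 0.05. TNFSF10 and CD40 are blue and dotted in all 3 lines, XIAP and CYLD red and dotted in all 3, and the colour scale ends at 2.

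Of 10 tested partners and inhibitors of the receptor complexes, 7 rose and 1 fell in SUDHL6, 8 rose and 1 fell in SUDHL4, and 5 rose and 3 fell in Farage, with median log2 changes of 0.57, 0.67 and 0.20. Among all loci 30.2, 29.6 and 29.2% rose in these lines. RIPK1, the kinase that joins the TNF receptor complex and the necrosome, rose in SUDHL6 (log2 change 0.80, adjusted p = 1.08e-05) and SUDHL4 (0.37, adjusted p = 0.00587) and stood at 0.17 in Farage (adjusted p = 0.157), called when only Farage libraries entered the fit (adjusted p = 0.0258). TRAF2, the ubiquitin ligase partner in that complex, rose by 0.41 in SUDHL6 (adjusted p = 0.00962) and by 0.91 in SUDHL4 (adjusted p = 1.28e-05) and was at 0.19 in Farage (adjusted p = 0.183). Its SUDHL6 groups overlapped, and that call was lost when only SUDHL6 libraries entered the fit (adjusted p = 0.122) and without both replicate 3 libraries (adjusted p = 0.0532), while the Farage value was called when only Farage libraries entered the fit (adjusted p = 0.0296). The row shared by BIRC2 and BIRC3, the cellular inhibitors of apoptosis, fell in SUDHL6 (-0.66, adjusted p = 0.00014) and Farage (-0.50, adjusted p = 0.00142) and was at -0.09 in SUDHL4 (adjusted p = 0.5). XIAP, which binds and inhibits caspases, rose in SUDHL6 (0.79, adjusted p = 2.75e-07), SUDHL4 (1.09, adjusted p = 1.16e-08) and Farage (0.92, adjusted p = 4.62e-08). CYLD, a deubiquitinase that restrains NF-kB signalling, rose by 1.38 in SUDHL6 (adjusted p = 6.95e-09), 0.68 in SUDHL4 (adjusted p = 1.72e-06) and 0.28 in Farage (adjusted p = 0.00418). TNFAIP3 (A20), another such restraint, was at -0.17 in SUDHL6 (adjusted p = 0.375; called at -0.43 without treated replicate 3, adjusted p = 0.00224), rose in SUDHL4 (0.73, adjusted p = 0.00106) and fell in Farage (-0.78, adjusted p = 0.000668), where it was most abundant.

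Modulators of the death-inducing complex gave 4 higher and 1 lower of 10 in SUDHL6, 5 and 2 in SUDHL4, and 8 and 1 in Farage. That makes 50, 70 and 90% called, beside 63.9, 66.7 and 67.2% of all loci in these lines. CASP10, the closest relative of CASP8, was at 0.06 in SUDHL6 (adjusted p = 0.556) and rose in SUDHL4 (0.33, adjusted p = 0.00232) and Farage (0.76, adjusted p = 1.44e-06), with all SUDHL6 and SUDHL4 libraries below 1 FPKM. DEDD2, a death effector domain protein singled out after its values were seen, rose 5.75-fold in SUDHL6 (2.43, SE 0.18, adjusted p = 5.99e-08), 6.35-fold in SUDHL4 (2.61, SE 0.18, adjusted p = 1.81e-08) and 7.24-fold in Farage (2.74, SE 0.18, adjusted p = 9.77e-09). Among the 12 tested effectors downstream of caspase-8, 4 rose and 3 fell in SUDHL6 and in Farage, and 4 rose and 7 fell in SUDHL4. The share of effectors called was 58.3% in SUDHL6, 91.7% in SUDHL4 and 58.3% in Farage, beside the same shares of all loci. CASP9, the initiator of the mitochondrial route, rose in SUDHL6 (0.65, adjusted p = 0.000313) and Farage (0.53, adjusted p = 0.00147) and was at -0.03 in SUDHL4 (adjusted p = 0.851). BID, the caspase-8 substrate that links the receptors to mitochondria, fell in SUDHL4 (-0.70, adjusted p = 0.0391) and Farage (-1.07, adjusted p = 0.00381) and was at -0.06 in SUDHL6 (adjusted p = 0.883), where its replicate 3 libraries were high in both groups. The SUDHL4 call of BID was lost without any single SUDHL4 library (adjusted p from 0.0538 to 0.096), with a pseudocount of 0.1 (adjusted p = 0.0587) and with no filter on low values (adjusted p = 0.061).

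The genes most like each member were found by Pearson's r of log2(FPKM + 1) over the 18 libraries after each line's mean was subtracted, as a description with no test, since all points share the treatment. ZNF330 was closest to TNFRSF10A (r = 0.992), TOR1AIP1 to TNFRSF10B (r = 0.993), BNIP3 to TNFRSF10D (r = 0.989), TYK2 to FAS (r = 0.985), SLTM to CASP8 (r = 0.981) and RPUSD2 to FADD (r = 0.989). For CFLAR the closest was CD80, the B7 costimulatory ligand, at r = 0.942, below the top value of each of the other 6 members.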

How the data were processed

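The authors deposited FPKM values per locus and library for 34410 loci. Per the submitters' processing notes, CASAVA 1.8, TopHat2 and Cufflinks were used with hg19. Their other settings are not given in these sources. No counts were present, so absolute depth is unknown and no counting interval is given. No column of per-sample values was left unmapped. FPKM sums ran from 1130063 to 1548453 per library, of which small RNA loci held 22.9 to 51%. Unnamed loci (5.72 to 19.1% of the sum) were left out. No 2 libraries held identical values.

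The filter kept 12201 named loci that reached 1 FPKM in 3 or more of the 18 libraries, taken as log2(FPKM + 1). This scale understates changes of low genes. A limma 3.58.1 model (R 4.3.3) gave each group its own mean, with an intensity trend and Benjamini-Hochberg adjustment over all loci. Calls have an adjusted p under 0.05. The method was tested on simulated data. Members match by exact name, with the highest mean where rows repeat. Pathway genes given values were listed by name whatever their change, except DEDD2, which was singled out after its values were seen. Others were counted. A few listed genes are not reported here by name. The closest gene by r had a mean of at least 5 FPKM. Members and lists were chosen with earlier results of these data known. The SUDHL6 replicate 3 libraries deviated together (r = 0.664) and against the other numbers (r from -0.507 to -0.432), as read from the data. SUDHL6 replicates 1 and 2 could not be paired by number. Their r was 0.309 and 0.366 for like numbers and 0.32 and 0.271 for unlike ones. RefSeq promoters come from GRCh38.p14, with no coordinates converted. Tables and plots used Python 3.11.15, pandas 2.3.3 and matplotlib 3.10.9. Alternatives covered pseudocount, filter, scaling, weights, samples fitted, single libraries and the replicate block.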

Additional observations from a re-analysis of the deposited data

Results flagged for a closer look

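The response to the inhibitor differed between the 3 lines by limma's moderated F test (Benjamini-Hochberg adjusted p, 3 libraries a group) for 6 members and 8 named pathway genes. For TNFRSF10D the adjusted p was 4.27e-06, with changes of 0.39, 3.40 and 4.29 on the log2 scale in SUDHL6, SUDHL4 and Farage. With a pseudocount of 0.1 it was 0.000903. For CFLAR it was 2.03e-05, with a rise in SUDHL6 and a fall in Farage. For FAS it was 1.58e-06, which a pseudocount of 0.1 turned into 0.462. FADD had 0.000756, TNFRSF10B 0.00297 and TNFRSF10A 0.0109. Of the pathway genes, CYLD had 5.69e-06 and TNFAIP3 0.000335, the latter rising in SUDHL4 and falling in Farage. CASP10 had 0.000655, which a pseudocount of 0.1 turned into 0.416, RIPK1 0.00758, TRAF2 0.00902 and CASP9 0.00945. The row shared by BIRC2 and BIRC3 had 0.0221, and 0.0516 to 0.0534 without SUDHL4 treated replicate 3 or DMSO replicate 1 or 2. With libraries paired by the replicate block, BID (0.00189) and TNF (0.00454) were called as well. Across all loci tested 52.5% differed by the same test.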

How the results depend on the processing

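Over 24 member responses (the 7 own loci and the shared TRADD row in 3 lines) and 31 alternatives, 732 of 744 values kept their direction and side of the threshold, 4 lost the call, 8 gained it and none reversed. The 12 exceptions concern TNFRSF10D, FAS, CFLAR and the TRADD row in SUDHL6 and CFLAR in SUDHL4, with the values given beside them above. CFLAR in SUDHL4 also gained its call with median-ratio scaling (adjusted p = 0.0302), array weights (0.000418), and without SUDHL6 treated replicate 1 (0.02), treated replicate 3 (0.0036) or both replicate 3 libraries (0.00288). CASP8 under DMSO, SUDHL4 against SUDHL6, lost its call with only those groups fitted (0.0685) and without SUDHL6 DMSO replicate 3 (0.0504) or SUDHL4 DMSO replicate 1 (0.0501), and FADD gained its call there without SUDHL6 treated replicate 1 (0.0457). Among pathway genes, TRAF2 in Farage was also called with array weights (0.0131) and without SUDHL6 treated replicate 1 (0.0487), RIPK1 in Farage with array weights (0.005), TNFAIP3 in SUDHL6 without both replicate 3 libraries (-0.32, 0.00547), and the difference between lines for XIAP in 5 alternatives (0.00661 to 0.0424).

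Values that changed sign were all near 0 or noisy and uncalled. BID in SUDHL6 (-0.06) was 0.06 with array weights, 0.05 without both replicate 3 libraries, and from -0.36 to 0.34 without single libraries. TNF in SUDHL6 (-0.72) ran from -1.76 to 0.12 without single libraries (0.06 without DMSO replicate 3). Its value of -1.76, without treated replicate 3, kept its sign and was called (adjusted p = 0.0129). CASP9 in SUDHL4 (-0.03) was 0.02 with median-ratio scaling and ran from -0.09 to 0.00 without single libraries. FADD under DMSO, Farage against SUDHL4 (0.02), was -0.02 with upper-quartile scaling, -0.03 with array weights and from -0.06 to 0.09 without single libraries. Counting the shared TNFRSF10C row as a decoy moved the signalling share to 99.6% in SUDHL6 DMSO, 96% in Farage DMSO and 64% in treated Farage. Summing the rows of CFLAR moved its ratio to CASP8 to 0.501 in treated SUDHL4, 4.48 in Farage DMSO and 1.39 in treated Farage. The causes were not tested.

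With the replicate block, 6, 6 and 7 members were called in SUDHL6, SUDHL4 and Farage, as without it. Among the responses of named genes it added TNF in SUDHL6 (given above) and in SUDHL4 (-1.34, adjusted p = 0.000149), and among their differences between lines BID and TNF (values in the preceding section), and changed no other call of these. In SUDHL4 (r = -0.034, 0.064 and -0.058) and Farage (0.073, -0.038 and 0.077) same-numbered libraries showed little joint deviation. The labels do not say what such libraries share. Leaving out both SUDHL6 replicate 3 libraries and counting TNFRSF10C among the decoys were chosen after seeing the data. Levels below 1 FPKM are the least precise, and depth relative to the median fell to 0.691.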
